A study of Arabidopsis arenosa x Arabidopsis thaliana and Arabidopsis thaliana and Arabidopsis arenosa with 5 samples.

Results

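At 188 of the 10847 loci listed in leaves of A. suecica, the A. arenosa allele had transcript and the A. thaliana allele a value of 0. The report describes 142 of them. Loci were taken where the A. thaliana allele was listed at 0 in every listed transcript, which held for 188 loci. Of these, 45 loci from AT3G62290 to AT3G63520, near the end of chromosome 3, and the locus AT1G79040 were left out, so that the 142 that remained lay scattered over the genome. These loci were thus selected on the 0 in A. suecica, which is given as a description and was not tested. At 56 other loci of the same table it was the A. arenosa allele that was at 0 in every listed transcript.

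Messenger RNA of rosette leaves, collected before bolting from tetraploid Arabidopsis, had been sequenced in 5 groups. A. suecica is the natural allotetraploid that carries the genomes of A. thaliana and A. arenosa. It was 6 to 7 weeks old, as were an allotetraploid of generation F8, a resynthesized F1 allotetraploid and an autotetraploid A. arenosa of the accession Care-1. An autotetraploid A. thaliana of the accession Landsberg erecta was 3 to 4 weeks old, so in the comparison of the parents age and species cannot be told apart. All plants grew at 22 °C in 16 h of light and 20 °C in 8 h of dark, and no treatment is named. A. suecica and F8 had 1 library each, with no replicate check. The F1 and each parent had 3 replicate columns, and the labels do not say whether these came from separate plants, so p-values measure the spread between columns, which may be technical.

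An allotetraploid holds copies of each gene from both parental species, here called the A. arenosa allele and the A. thaliana allele. Both alleles sit in the same nucleus and meet the same regulatory proteins, so their ratio is commonly used to read differences that belong to the gene copy itself. In plant allopolyploids, one copy of a gene can be expressed far below the other, can be silenced or can be lost from the genome. In the tables used here an allele listed at 0 is one whose expression value was given as 0, and which of these states lies behind it was not tested.

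Levels are in RPKM, which divides the reads of a transcript by its length and by the mapped reads of the library. Depth per library is unknown, so how low a level a 0 can hide is unknown too. The A. suecica table began at a total of 2.0 RPKM, so the A. arenosa allele of each of the 142 loci was at least that high by the listing alone. The F1 table listed no 0 at all. Of its values below 0.5 RPKM, the fullest band of 0.02 RPKM held 47.8%, 36.4% and 83.5% for the A. thaliana allele in columns 1, 2 and 3 and 39.4%, 47.1% and 92.0% for the A. arenosa allele. These bands lay between 0.06 and 0.22 RPKM, not at one place, and were weaker in columns 1 and 2. Values below 0.3 RPKM in the F1 were therefore taken as not told from 0. Summed over 5 leaf markers (RBCS1A, RCA, LHCB2.1, CA1 and PSBO1), the level was 19195 RPKM in A. suecica, 21923 RPKM in F8, 3116 to 16695 RPKM in the F1 columns, 14615 to 19855 RPKM in A. arenosa and 2658 to 26344 RPKM in A. thaliana. The sums of 4 flower and 2 seed markers reached at most 2.07 and 0.398 RPKM in any parental column, and that of 2 root markers 16.1 RPKM. In column 1 of A. arenosa, 47.6% of the summed RPKM fell on ribosomal RNA transcripts, against at most 1.68% in the other parental columns.

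Close relatives among these loci can be compared by the bases that a read of at most 83 bases would see. The first 83 coding bases of 3 neighbouring HSP90 genes, all with their A. thaliana allele at 0 in A. suecica, are shown because these genes form the longest run among the 142 loci and are nearly alike. The sequences are of the A. thaliana reference, RefSeq TAIR10.1, read 5′ to 3′ on the coding strand from the start codon. Capitals mark where the set differs at the same position from the start codon, without alignment.
Hsp81.4: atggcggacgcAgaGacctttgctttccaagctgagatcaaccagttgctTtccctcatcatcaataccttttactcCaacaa
HSP81-3: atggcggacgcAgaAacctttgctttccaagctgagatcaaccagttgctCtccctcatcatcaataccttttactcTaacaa
HSP81-2: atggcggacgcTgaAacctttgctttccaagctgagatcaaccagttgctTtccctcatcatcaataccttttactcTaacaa
The same stretch of LHB1B1, the silent locus with the highest level, (chr2:14524607-14525918, plus strand) and of LHB1B2 (chr2:14522524-14523568, minus strand), its closest relative and not one of the 142, follows.
LHB1B1: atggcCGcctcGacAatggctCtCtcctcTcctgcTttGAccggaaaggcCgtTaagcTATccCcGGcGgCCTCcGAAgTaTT
LHB1B2: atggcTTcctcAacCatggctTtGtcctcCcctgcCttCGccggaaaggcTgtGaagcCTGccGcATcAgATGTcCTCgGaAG
Compared position by position, the HSP90 set differed at 4 of the 83 positions, and the LHB1B set at 29 of 83. The coding sequences of LHB1B1 and LHB1B2 are 801 and 798 bases long. An inserted or missing base shifts all later positions, so the count of 29 may be too high and is not set against the 4. This stretch does not stand for the whole genes. Over the whole coding sequence LHB1B1 and LHB1B2 are 91.5% identical, and Hsp81.4 and HSP81-3 95.4%. In A. suecica, LHB1B2 had an A. thaliana share of 6.73%. How well reads told these genes apart was not tested.

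In A. suecica the total of both alleles had a median of 16.9 RPKM over the 142 loci (quartiles 6.62 and 35.8, range 2.01 to 2156) and 16.7 RPKM over all listed loci. At the silent loci this total is the A. arenosa allele alone, which had a median of 7.93 RPKM over all listed loci and reached 20 RPKM at 61 of the 142 (43.0%), against 21.7% of all loci. Since a silent locus was listed through its A. arenosa allele alone, the gap in that allele follows in part from the listing and is not read as a difference. Among the other loci, the A. thaliana allele had a median of 8.13 RPKM. Nearest to the limit on the inner side, by low level, were MYB70 with 2.01, AT5G17210 with 2.02, POLA3 with 2.12, PATL2 with 2.49 and CRK30 with 3.07 RPKM from the A. arenosa allele. Just outside were AT1G24280, AT1G67970, AT2G02410, AT3G03940 and AT5G37350, whose A. thaliana alleles were listed at 0.0102, 0.0222, 0.0233, 0.0289 and 0.0659 RPKM.

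In F8 and the F1 most of these loci did express the A. thaliana allele, at a reduced share. The A. thaliana share of the transcript had a median of 14.2% in F8, against 49.6% over all loci. It was 27.0%, 24.8% and 19.0% in F1 columns 1, 2 and 3, against 48.1%, 49.1% and 49.9% over all loci. The silent loci thus lay below the whole table in each of the 4 libraries. These loci were chosen for a silent A. thaliana allele in A. suecica and were listed there through the A. arenosa allele alone. Choice and listing may therefore tilt their shares and allele ratios in F8 and the F1 toward A. arenosa. How far was not tested. Since leaf RNA is a bulk sample, fewer cells that express an allele and less RNA per cell cannot be told apart.

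**Figure D1:**
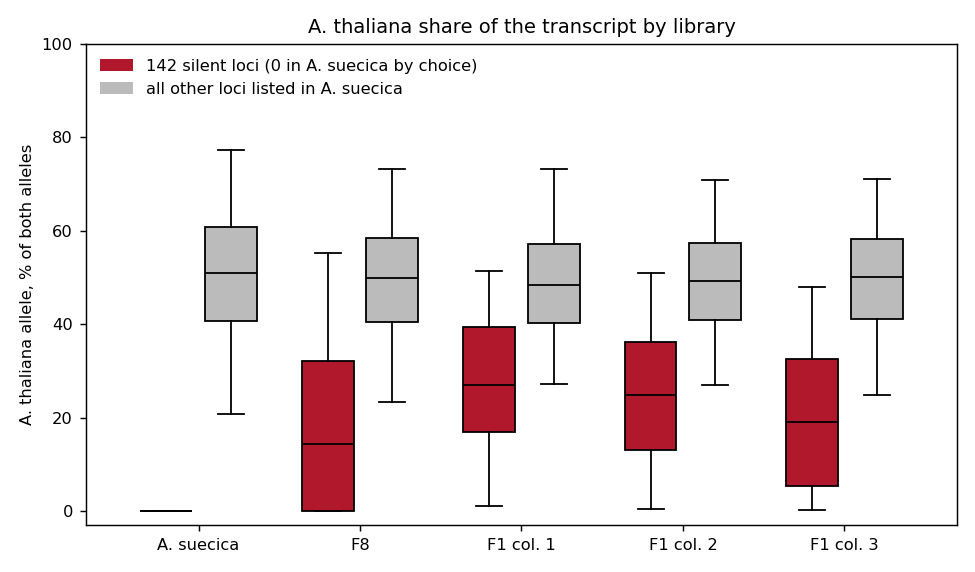
The A. thaliana allele as a percentage of both alleles (vertical axis) is drawn for the 142 silent loci (red) and for all other loci listed in A. suecica (grey), in A. suecica, F8 and the 3 F1 columns. Boxes span the quartiles with the median as a line, and whiskers reach the percentiles 5 and 95; the red boxes sit below the grey ones in F8 and in each F1 column, and the 0 in A. suecica was the criterion of choice.

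In F8, the A. thaliana allele was at 0 at 37 of the 141 loci listed there (26.2%), against 1.1% of all loci, and these 37 are called loci at 0 in F8 from here on. AT1G62290, an aspartyl protease gene, was the locus not listed in F8. The other 104 loci had a median of 3.99 RPKM from the A. thaliana allele and a median share of 24.7%. That allele reached 5 RPKM at 45 loci and 20 RPKM at 15, and at 13 loci it exceeded the A. arenosa allele. Over all loci, the A. thaliana allele had a median of 6.69 RPKM in F8 and a median share of 49.6%. The shares of all loci that meet these limits were not computed, so the counts are not read as a trait of the silent loci. Of 124 loci with at least 5 RPKM in F8, 91 (73.4%) had an A. arenosa allele at least 2-fold higher, against 11.5% of all loci, and at 2 the A. thaliana allele was 2-fold or more above the other, against 7.68%. Without the loci at 0 in F8, the first count was 58. The median log2 ratio of the alleles, A. arenosa over A. thaliana, was 2.09 for the silent loci and 0.02 for all loci, computed on RPKM + 1 as are all log2 values here, which understates differences of low genes.

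Allele ratios in the F1 could be tested over the 3 columns. At 85 of 127 loci the A. arenosa allele was higher (66.9%; limma, Benjamini-Hochberg adjusted p below 0.05 over all loci and at least 2-fold), against 8.47% of all loci. The A. thaliana allele was higher at 2, AT3G18535 and CFM3A, against 4.42% of all loci; without F1 column 1 or column 2 this count was 1. In every column, the A. arenosa allele was above the other at 112 of the 127 (88.2%), against 35.4% of all loci, and below it in every column at 3, against 27.6%. The median log2 ratio was 1.49 (quartiles 0.93 and 2.45), against 0.05 over all loci. The other 15 loci had less than 5 RPKM from both alleles together and were not tested.

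Part of the silent loci had no measurable A. thaliana allele in the F1. It was below 0.3 RPKM in all 3 columns at 11 of the 142 loci (7.75%), against 0.166% of all loci, and in at least 1 column at 38 (26.8%), against 2.65%. The 11 were MT1C, CAT1, AT1G55930, AT1G62290, AT1G73325, AT3G04230, AT3G15460, AT5G17000, AT5G19875, CYP71B11 and Hsp81.4, of which 9 were also at 0 in F8. MT1C had 3.83 RPKM there and AT1G62290 was not listed. Conversely, 104 loci had at least 0.3 RPKM in every F1 column, and 12 of these were at 0 in F8. The median F1 share of the A. thaliana allele was 11.3% at loci that were at 0 in F8 and 28.4% at loci that were above 0 there.

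The A. thaliana parent had a value above 0 at each of these loci in every column. Its mean reached 5 RPKM at 101 of the 142 loci and 20 RPKM at 41, and the lowest value in any column was 0.248 RPKM. The shares of all loci that reached these levels were not computed, so the counts are not read as a trait of the silent loci. At the 37 loci at 0 in F8, the parental means ran from 1.57 to 136 RPKM with a median of 9.20, and the median was 9.21 at the loci above 0 in F8. Over the silent loci, the A. arenosa columns had medians of 17.99, 19.0 and 20.7 RPKM and the A. thaliana columns 6.58, 7.52 and 8.69 RPKM. Over all loci of the A. suecica table these were 12.9, 13.9 and 15.1 RPKM in A. arenosa and 10.6, 11.1 and 12.2 RPKM in A. thaliana. The silent loci thus lay above the whole table in A. arenosa and below it in A. thaliana. They were listed in A. suecica through the A. arenosa allele alone, whereas other loci could be listed through either. Choice and listing may therefore tilt these parental levels in the direction seen, and how far was not tested.

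Between the parents, 49 of 129 silent loci (38.0%) were higher in A. arenosa by the same limma test, against 10.7% of the 12740 loci compared. AT3G18535 was the one locus higher in A. thaliana, against 4.21% of all loci. The other 13 silent loci were under 5 RPKM in both parents and were not tested. All A. arenosa columns lay above all A. thaliana columns at 75 of the 129 (58.1%), against 28.6% of all loci, and all lay below at 1, against 10.3%. The median log2 difference, A. arenosa minus A. thaliana, was 0.97 (quartiles 0.44 and 1.77), against 0.31 over all loci. The count of 49 was 31 without A. thaliana column 2, 25 without A. arenosa column 2 and 29 without A. arenosa column 3. Without A. arenosa column 1, the one rich in ribosomal RNA, it was 49. The choice and listing of the silent loci may tilt these parental contrasts toward A. arenosa too, and how far was not tested.

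**Figure D2:**
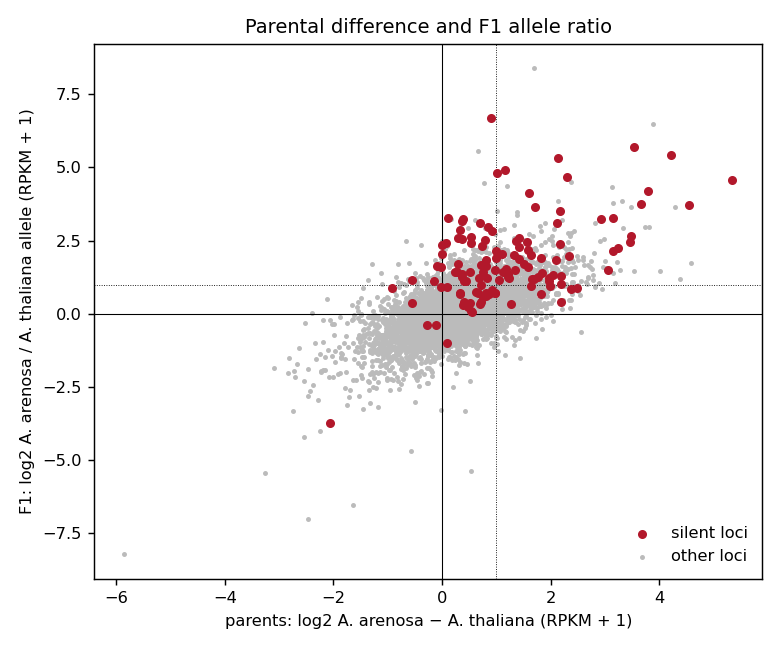
Each point is a locus, with the log2 difference of the parents (A. arenosa minus A. thaliana) on the horizontal axis and the log2 ratio of the alleles in the F1 (A. arenosa over A. thaliana) on the vertical axis, for 125 silent loci (red) and 9732 other loci (grey). Dotted lines mark 2-fold; most red points lie above 0 on both axes, with medians of 0.97 and 1.49 for the loci compared on each.

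Whether the A. arenosa allele made up for the missing one was read from levels in A. suecica set against the other allotetraploids, by size alone. The A. arenosa allele of the silent loci had a median log2 difference of 0.30 from that of F8, against 0.19 over all loci, and 0.37 from the F1 mean, against 0.23. It was at least 2-fold higher than in F8 at 29 of 129 loci (22.5%), against 17.3% of all loci, and at least 2-fold lower at 22 (17.1%), against 13.8%. Set against the F1, it was higher at 33 of 132 (25.0%), against 16.6%, and lower at 20 (15.2%), against 13.6%. Centred on the median of all loci, 23 were higher and 26 lower than in F8, so the split between directions turned with the centring. Each silent locus had to be listed in A. suecica through this allele alone, whereas other loci could be listed through either. The listing may thus tilt these comparisons upward, and how far was not tested.

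The total of both alleles is set beside F8 and the F1 as a description, since the choice of loci with an A. thaliana allele at 0 in A. suecica itself lowers it. Its median was 89.9% of the F8 total, against 118% over all loci, and 96.8% of the F1 total, against 114%. On the log2 scale the median differences were -0.15 from F8, against 0.22, and -0.02 from the F1, against 0.21. The total was at least 2-fold below that of F8 at 34 of 134 loci (25.4%), against 9.51% of all loci, and at least 2-fold above at 15 (11.2%), against 13.3%. Relative to the F1 it was 2-fold lower at 25 of 135 (18.5%), against 8.83%, and 2-fold higher at 22 (16.3%), against 12.9%. Relative to the mean of the parents, 21 of 135 (15.6%) were 2-fold lower, against 5.05%, and 18 (13.3%) 2-fold higher, against 15.4%. The median from that mean was 0.08, against 0.39 over all loci.

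The same loci were also split by what F8 expressed from the A. thaliana allele. At the 45 loci whose A. thaliana allele had at least 5 RPKM in F8, the A. arenosa allele of A. suecica had a median log2 difference of 0.32 from that of F8, and the total of A. suecica -0.27 from that of F8. Their total was at least 2-fold lower at 15 of 45 and higher at 5, against the 9.51% and 13.3% of all loci; since these loci had an A. thaliana allele in F8 and none in A. suecica by choice, a lower total is built in. At the 37 loci that were at 0 in F8 as well, total and A. arenosa allele are the same in both, and their median log2 difference was -0.20, with 11 of 35 compared 2-fold lower and 2 higher. Over all loci the A. arenosa allele had a median log2 difference of 0.19 from F8, with 13.8% at least 2-fold lower and 17.3% higher. Across the silent loci, the total relative to F8 ranged from 5.90% (GER3) to 1710.4% (BG3), so the total of single loci differed widely in both directions.

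**Figure D3:**
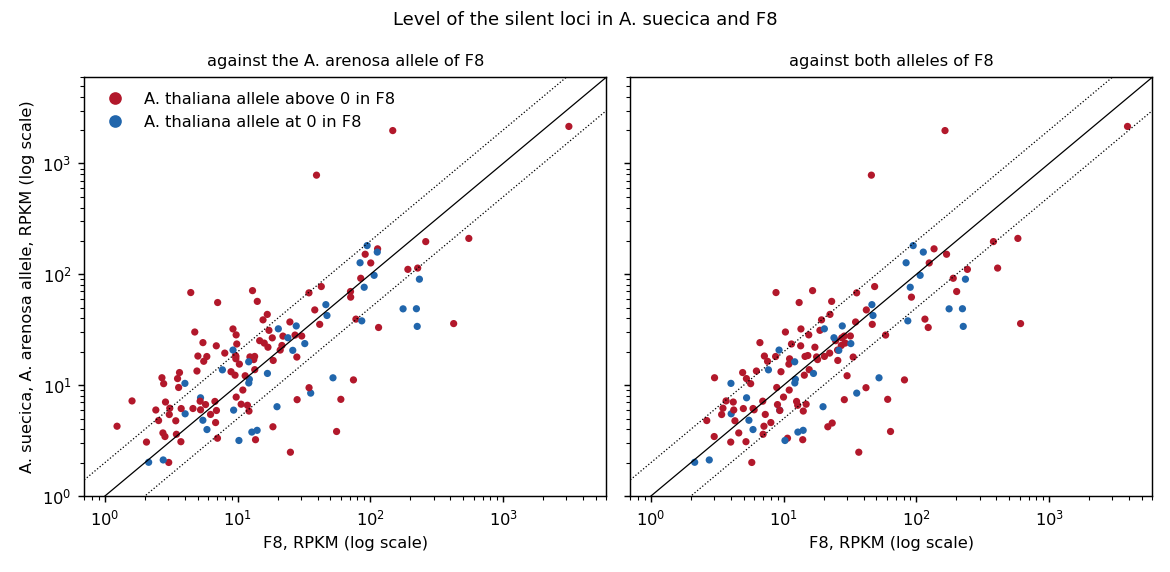
The A. arenosa allele in A. suecica (vertical axis, RPKM, log scale) is plotted against F8 (horizontal axis, RPKM, log scale) for the silent loci, with the A. arenosa allele of F8 at left and both alleles of F8 at right. The solid line marks equal levels, dotted lines 2-fold, red loci with an A. thaliana allele above 0 in F8 and blue the 37 at 0; AT3G18535, with 0.00563 RPKM from the A. arenosa allele in F8, lies outside the left panel, and at right more loci fall below the lower dotted line than at left.

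The 142 loci were sorted by function into 13 groups, by hand from the RefSeq product names and textbook knowledge. Counts in each group stand beside these shares. A higher A. arenosa allele in the F1 was found at 66.9% of the silent loci tested and 8.47% of all loci. A higher A. arenosa parent was found at 38.0% and 10.7%, and an A. thaliana allele at 0 in F8 at 26.2% and 1.1%. The A. arenosa allele was 2-fold above that of F8 at 22.5% and 17.3%, and below it at 17.1% and 13.8%. No group was tested against the others. Photosynthesis held 2 loci, among them the silent locus with the highest level in A. suecica. LHB1B1 (AT2G34430), a chlorophyll-binding antenna protein of photosystem II, had 2156 RPKM from the A. arenosa allele in A. suecica. In F8 it had 3129 RPKM from the A. arenosa and 765 RPKM from the A. thaliana allele. In the F1 the A. arenosa allele had 306, 1630.1 and 3442 RPKM and the A. thaliana allele 131, 688 and 568 RPKM. In each F1 column the A. arenosa allele was the higher one, while levels varied widely among columns, as did the sum of the leaf markers, whose part in this was not tested. The F1 log2 ratio was 1.68 (SE 0.29, limma, adjusted p = 0.010). Between the parents, columns overlapped, with 3779, 3436 and 2941 RPKM in A. arenosa and 1212, 3198 and 5427 RPKM in A. thaliana (log2 difference 0.29, SE 0.70, adjusted p = 0.80). Pnsl5, a cyclophilin of the NDH complex in the thylakoid, had 127 RPKM in A. suecica, and its F1 ratio of 1.21 passed the test.

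Defence genes and protease inhibitors formed a group of 11. Among F1 alleles, that of A. arenosa was higher at 9 of them and that of A. thaliana at none, and 7 of 11 were higher in the A. arenosa parent. Relative to F8, the A. arenosa allele in A. suecica was at least 2-fold higher at 4 members and lower at 4. AT1G73325 was the member at 0 in F8.

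ESM1 (AT3G14210), which acts on how glucosinolates are broken down, had 1978 RPKM from the A. arenosa allele in A. suecica. In F8 that allele had 148 RPKM and the A. thaliana allele 16.8 RPKM. The F1 had 29.4, 33.3 and 71.0 RPKM from the A. arenosa allele and 5.92, 7.78 and 6.36 RPKM from the A. thaliana allele. The alleles did not overlap, and A. suecica stood far above each library of the other allotetraploids, by 3.74 over F8 and 5.55 over the F1 on the log2 scale of the A. arenosa allele. The F1 log2 ratio was 2.46 (SE 0.28, adjusted p = 0.0037). A. arenosa had 114, 208 and 214 RPKM and A. thaliana 6.39, 12.2 and 38.1 RPKM, also without overlap (log2 difference 3.47, SE 0.62, adjusted p = 0.011). The parental difference did not pass without A. arenosa column 2, at 3.33, or column 3, at 3.31, and was 4.13 without A. thaliana column 3.

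BG3 (AT3G57240), a beta-1,3-glucanase of the pathogenesis-related type, had 784 RPKM in A. suecica. F8 had 39.3 RPKM from the A. arenosa and 6.52 RPKM from the A. thaliana allele. The F1 had 297, 63.1 and 345 RPKM from the A. arenosa allele and 39.2, 7.65 and 7.09 RPKM from the A. thaliana allele. In each library the A. arenosa allele was higher, and its level was lowest in F8 and F1 column 2. The F1 log2 ratio was 3.73 (SE 0.50, adjusted p = 0.0055), and 2.89 without column 3. A. arenosa had 2275, 1209.6 and 1526 RPKM and A. thaliana 165, 165 and 10.9 RPKM, without overlap (log2 difference 4.55, SE 1.03, adjusted p = 0.026). It did not pass without A. arenosa column 1, 2 or 3, at 4.30, 4.76 and 4.59, and was 5.18 without A. thaliana column 1 or 2 and 3.28 without column 3.

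PR4 (AT3G04720), a chitin-binding pathogenesis-related protein, behaved differently. It had 43.5 RPKM in A. suecica, and in F8 16.7 RPKM from the A. arenosa and 5.61 RPKM from the A. thaliana allele. In the F1 the A. arenosa allele had 98.3, 30.2 and 46.4 RPKM and the A. thaliana allele 125, 13.9 and 16.6 RPKM. In F1 column 1 the A. thaliana allele was the higher one, and the ratio did not pass (log2 0.72, SE 0.34, adjusted p = 0.16). Without that column it passed, at 1.25. The parents overlapped as well, with 90.2, 54.1 and 116 RPKM in A. arenosa and 66.4, 122 and 34.4 RPKM in A. thaliana (log2 parental difference 0.33, adjusted p = 0.68).

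GILP (AT5G13190), a LITAF-domain protein linked to the control of cell death, had 33.2 RPKM in A. suecica, against 115 RPKM from the A. arenosa and 7.46 RPKM from the A. thaliana allele in F8. The F1 had 88.1, 102 and 176 RPKM from the A. arenosa and 48.0, 38.8 and 37.4 RPKM from the A. thaliana allele (log2 ratio 1.48, SE 0.26, adjusted p = 0.012). The alleles did not overlap, and the level of A. suecica lay below that of the A. arenosa allele in every other allotetraploid library. A. arenosa had 125, 167 and 195 RPKM and A. thaliana 58.7, 84.7 and 49.5 RPKM (log2 difference 1.34, adjusted p = 0.035). This call was lost when centred on the median of all loci, at 1.02, and without A. thaliana column 1 or 2, at 1.29 and 1.55, or A. arenosa column 2 or 3, at 1.30 and 1.19. Among the other defence genes, AT1G73325, a Kunitz-type protease inhibitor, had 97.9 RPKM in A. suecica and 107 RPKM from the A. arenosa allele in F8. Its A. arenosa allele had 9.43, 34.0 and 53.9 RPKM in the F1 and its A. thaliana allele 0.248, 0.110 and 0.111 RPKM. A. arenosa had 102, 176 and 202 RPKM and A. thaliana 0.806, 2.06 and 9.01 RPKM, the widest difference between the parents among the silent loci (log2 5.34, SE 0.63, adjusted p = 0.0020). AT5G47550, a cystatin, had 57.0 RPKM. TI2, a trypsin inhibitor, had 3.83 RPKM in A. suecica against 55.7 RPKM from the A. arenosa allele of F8, and was named after its values were seen.

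The group of stress, redox and metal genes had 11 members, of which 8 of 11 had a higher A. arenosa allele in the F1 and 5 of 10 were higher in A. arenosa among the parents. CAT1 and AT5G17000 were at 0 in F8. GER3 (AT5G20630), a germin-like protein of the cell wall, had 36.0 RPKM in A. suecica, against 424 RPKM from the A. arenosa and 185 RPKM from the A. thaliana allele in F8. The F1 had 167, 183 and 74.6 RPKM from the A. arenosa and 49.3, 44.9 and 21.0 RPKM from the A. thaliana allele. Its A. arenosa allele was higher in every column (log2 ratio 1.84, SE 0.14, adjusted p = 0.0022). A. arenosa had 210.4, 354 and 142 RPKM and A. thaliana 79.0, 37.4 and 44.1 RPKM, without overlap (log2 difference 2.09, SE 0.45, adjusted p = 0.022). Without A. arenosa column 1 or 2 or A. thaliana column 2 it did not pass, at 2.12, 1.75 and 1.88.

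AT5G22580, a protein with a stress-responsive A/B barrel domain, had 197 RPKM in A. suecica, against 261 RPKM from the A. arenosa and 119 RPKM from the A. thaliana allele in F8. The F1 had 95.2, 114 and 176 RPKM from the A. arenosa and 35.2, 58.1 and 40.5 RPKM from the A. thaliana allele (log2 ratio 1.49, SE 0.23, adjusted p = 0.0085). Its alleles did not overlap, nor did the parents, with 219.8, 203 and 381 RPKM in A. arenosa and 21.0, 35.9 and 35.4 RPKM in A. thaliana (log2 difference 3.06, SE 0.37, adjusted p = 0.0022). CAT1, a catalase that breaks down hydrogen peroxide, had 127 RPKM in A. suecica. It is one of the 11 loci below 0.3 RPKM throughout the F1, with 111, 127 and 104 RPKM from the A. arenosa allele beside 0.109, 0.10 and 0.106 RPKM from the A. thaliana allele. The A. thaliana parent had 91.8, 109 and 63.6 RPKM, so a gene expressed in each parental column had almost no value from that allele in the F1. SNRK2.4, a kinase of the osmotic stress response, had 77.6 RPKM in A. suecica. MT1C, a metallothionein, had 47.8 RPKM and PLAT2, a lipase/lipoxygenase-domain protein, 39.4 RPKM. AT5G17000, a zinc-binding dehydrogenase, had 34.2 RPKM and HVA22C, of a stress-induced family, 22.8 RPKM.

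Ribosome and RNA genes numbered 16. In the F1, the A. arenosa allele was higher at 10 of 14 tested, the A. thaliana allele at CFM3A, and 6 of the 16 were at 0 in F8. Relative to F8, the A. arenosa allele in A. suecica was at least 2-fold lower at 4 members and higher at 1. RPL27 (AT5G40950), a large-subunit ribosomal protein, had 114 RPKM in A. suecica, against 227 RPKM from the A. arenosa and 182 RPKM from the A. thaliana allele in F8. Its F1 alleles had 92.4, 105 and 131 RPKM from A. arenosa and 37.9, 78.4 and 101 RPKM from A. thaliana. The A. arenosa allele was the higher one in each column, and the ratio did not pass (log2 0.68, SE 0.21, adjusted p = 0.058); without column 3 its adjusted p was below 0.05, at a ratio of 0.84. The parents overlapped, with 249.6, 259 and 304 RPKM in A. arenosa and 66.0, 118 and 409.8 RPKM in A. thaliana (log2 parental difference 0.87, adjusted p = 0.39), and without A. thaliana column 3 the difference passed, at 1.60. The total of RPL27 in A. suecica was 27.8% of that in F8.

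AT3G18740, of the L7Ae/L30e ribosomal protein family, had 111 RPKM in A. suecica, against 192 RPKM from the A. arenosa and 50.5 RPKM from the A. thaliana allele in F8. The F1 had 97.6, 109 and 124 RPKM from the A. arenosa and 36.6, 37.6 and 29.0 RPKM from the A. thaliana allele. The alleles were well apart in the F1 (log2 ratio 1.65, SE 0.18, adjusted p = 0.0036), whereas the parents, with 186, 170.3 and 188 RPKM in A. arenosa and 86.4, 82.9 and 183 RPKM in A. thaliana, overlapped (log2 difference 0.72, adjusted p = 0.24). Without A. thaliana column 3 the parental difference passed, at 1.09. AT1G74270 (L35Ae family) had 90.4 RPKM in A. suecica, AT3G45030 (S10p/S20e family) 48.8 RPKM and AT3G04230 (S5 domain 2-like) 38.1 RPKM. These 3 ribosomal genes were at 0 in F8 and 2-fold or more below the A. arenosa allele of F8. AT5G12190, an RNA-binding protein, had 26.8 RPKM, SMP1, a pre-mRNA splicing factor, 26.7 RPKM, and AT5G51280, a DEAD-box helicase, 22.0 RPKM.

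Chaperones and proteases had 8 members, and 5 of 7 tested in the F1 had a higher A. arenosa allele. The 3 HSP90 genes whose first coding bases are printed above lie side by side on chromosome 5 (TAIR10.1), Hsp81.4 at 22677338 to 22680152, HSP81-3 at 22681238 to 22684252 and HSP81-2 at 22686473 to 22689671. HSP90 proteins are chaperones that help kinases, receptors and other client proteins to fold. In A. suecica, their A. arenosa alleles had 42.5 RPKM (Hsp81.4), 76.4 RPKM (HSP81-3) and 62.3 RPKM (HSP81-2).

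The A. thaliana alleles of these 3 genes differed from one another in F8 and the F1. In the F1, Hsp81.4 had 20.0, 26.2 and 39.7 RPKM from the A. arenosa allele beside 0.126, 0.112 and 0.113 RPKM from the A. thaliana allele, which was at 0 in F8. HSP81-3 had 38.4, 57.1 and 95.7 RPKM from the A. arenosa allele beside 14.2, 14.1 and 0.106 RPKM from the A. thaliana allele, at 0 in F8. HSP81-2 had 35.9, 42.7 and 66.1 RPKM from the A. arenosa allele beside 16.4, 24.1 and 23.4 RPKM from the A. thaliana allele, which had 20.7 RPKM in F8. The A. thaliana allele was thus present throughout the F1 and F8 for HSP81-2, was below 0.3 RPKM in 1 F1 column and at 0 in F8 for HSP81-3, and was at 0 in F8 and not told from 0 in the F1 for Hsp81.4. In the A. thaliana parent Hsp81.4 had 12.9, 11.8 and 11.02 RPKM, HSP81-3 81.2, 60.8 and 72.3 RPKM, and HSP81-2 74.3, 61.3 and 78.5 RPKM. The F1 log2 ratio passed the test for each of them, at 4.67 (SE 0.22, adjusted p = 0.00093) for Hsp81.4, 3.26 (SE 0.93, adjusted p = 0.045) for HSP81-3 and 1.11 (SE 0.18, adjusted p = 0.0089) for HSP81-2. That of HSP81-3 did not pass with a pseudocount of 0.1, at 4.10, and it was 4.20, 3.91 and 1.66 without F1 column 1, 2 and 3. With that pseudocount the ratio of Hsp81.4 was 6.99. Between the parents Hsp81.4 passed, at 2.30 (SE 0.27, adjusted p = 0.0020), with 48.3, 57.4 and 86.6 RPKM in the A. arenosa columns. The coding sequences are 95.4% identical between Hsp81.4 and HSP81-3 and 95.5% identical between HSP81-3 and HSP81-2, so the value of each gene is uncertain where reads could be shared. AT3G54400, an aspartyl protease, had 48.9 RPKM in A. suecica and was at 0 in F8, where its A. arenosa allele had 222 RPKM.

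Lipid genes had 8 members, with a higher A. arenosa allele at 3 of 6 tested in the F1. PLDALPHA1 (AT3G15730), a phospholipase that makes phosphatidic acid, had 152 RPKM in A. suecica, against 91.5 RPKM from the A. arenosa and 77.3 RPKM from the A. thaliana allele in F8. The F1 had 50.7, 79.7 and 148 RPKM from the A. arenosa and 37.3, 46.9 and 83.1 RPKM from the A. thaliana allele. The A. arenosa allele was higher in each column by less than 2-fold on average (log2 ratio 0.67, SE 0.15, adjusted p = 0.024). The adjusted p was above 0.05 without F1 column 2, at 0.63, or column 3, at 0.59. The parents overlapped, with 75.7, 115 and 179 RPKM in A. arenosa and 77.6, 92.2 and 111 RPKM in A. thaliana (log2 parental difference 0.32, adjusted p = 0.58). Its total in A. suecica was 89.9% of that in F8 and 102% of that in the F1.

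FAD6 (AT4G30950), a plastid desaturase that makes unsaturated fatty acids of membrane lipids, showed nearly equal alleles in the F1. It had 92.1 RPKM in A. suecica, against 84.7 RPKM from the A. arenosa and 105 RPKM from the A. thaliana allele in F8. The F1 had 30.9, 60.2 and 70.2 RPKM from the A. arenosa and 30.9, 53.5 and 64.0 RPKM from the A. thaliana allele (log2 ratio 0.10, SE 0.14, adjusted p = 0.62). A. arenosa had 106, 145 and 172 RPKM and A. thaliana 43.5, 88.9 and 223 RPKM, which overlapped (log2 difference 0.53, adjusted p = 0.56). LTP2, a lipid transfer protein, had 170 RPKM in A. suecica, against 113 RPKM from the A. arenosa and 22.4 RPKM from the A. thaliana allele in F8. The parents overlapped, since A. thaliana ran from 0.299 to 163 RPKM among its columns, and their difference did not pass (log2 3.67, SE 1.61, adjusted p = 0.17), while the F1 ratio did (log2 3.77, SE 0.36, adjusted p = 0.0030). Its total was 125% of that in F8, against 48.6% for FAD6.

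Nitrogen, amino acid and transport genes numbered 12. Here the A. arenosa allele of A. suecica was at least 2-fold above that of F8 at 5 of 12 and below it at none, against 22.5% and 17.1% of the silent loci. In the F1, 7 of 11 tested had a higher A. arenosa allele, against 66.9% of the silent loci. ARGAH2 (AT4G08870), an arginase that splits arginine to urea and ornithine, had 70.0 RPKM in A. suecica. F8 had 70.9 RPKM from the A. arenosa and 130.2 RPKM from the A. thaliana allele. In the F1 the A. arenosa allele had 31.4, 64.4 and 78.6 RPKM and the A. thaliana allele 10.9, 54.2 and 140.3 RPKM. The order of the alleles turned round between columns, and the ratio did not pass (log2 0.29, SE 0.40, adjusted p = 0.62). The parents overlapped, with 96.9, 104 and 79.9 RPKM in A. arenosa and 25.7, 92.6 and 149 RPKM in A. thaliana (log2 parental difference 0.38, adjusted p = 0.70). Its A. arenosa allele was level with that of F8, and its total was 34.8% of that in F8.

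NIA1, a nitrate reductase, had 68.5 RPKM in A. suecica, against 4.44 RPKM from the A. arenosa and 4.32 RPKM from the A. thaliana allele in F8. That was the third highest total relative to F8 among the silent loci, at 781%. AMT1;1, an ammonium transporter, had 159 RPKM in A. suecica and was at 0 in F8, where its A. arenosa allele had 113 RPKM. Its F1 A. arenosa allele had 112, 69.4 and 135 RPKM and its F1 A. thaliana allele 30.6, 7.82 and 4.23 RPKM, without overlap (log2 ratio 3.18, SE 0.50, adjusted p = 0.0085). A. arenosa had 135, 120 and 186 RPKM and A. thaliana 197, 154 and 45.1 RPKM, so the parental columns overlapped. MTK, of methionine salvage, had 38.8 RPKM. ACR12, with an amino acid-binding ACT domain, had 37.2 RPKM and CAT8, a cationic amino acid transporter, 32.2 RPKM. OMR1, the threonine deaminase of isoleucine synthesis, had 23.7 RPKM and was at 0 in F8.

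Cytoskeleton and vesicle genes had 11 members, 4 of them at 0 in F8. SPR1 (AT2G03680), a microtubule-associated protein needed for straight growth of organs, had 182 RPKM in A. suecica, against 94.6 RPKM from the A. arenosa allele, with the A. thaliana allele at 0, in F8. The F1 had 102, 132 and 145 RPKM from the A. arenosa and 27.7, 19.7 and 13.1 RPKM from the A. thaliana allele. The alleles were well apart in the F1 (log2 ratio 2.63, SE 0.29, adjusted p = 0.0036). A. arenosa had 179.9, 223 and 183 RPKM and A. thaliana 124, 162 and 121 RPKM (log2 difference 0.53, adjusted p = 0.26). The parental columns did not overlap but did not pass the test. CEN2, a calcium-binding centrin, had 35.4 RPKM in A. suecica.

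AT3G18535, annotated as a tubulin-tyrosine ligase, went the opposite way from most others and was named after its values were seen. Its A. arenosa allele had 4.56 RPKM in A. suecica, while F8 had 0.00563 RPKM from the A. arenosa and 23.2 RPKM from the A. thaliana allele. Its F1 A. arenosa allele had 0.343, 0.199 and 2.36 RPKM and the A. thaliana allele 22.2, 24.5 and 21.3 RPKM. The A. thaliana allele carried almost all of the transcript in F8 and the F1, and none in A. suecica. The F1 log2 ratio was -3.75 (SE 0.33, adjusted p = 0.0026), and -5.05 with a pseudocount of 0.1. A. arenosa had 6.04, 6.90 and 4.65 RPKM and A. thaliana 19.6, 24.6 and 42.6 RPKM (log2 difference -2.06, adjusted p = 0.0060). CFM3A, of a family that splices chloroplast introns, was the other locus with a higher A. thaliana allele in the F1, with 1.65, 2.58 and 3.08 RPKM from the A. arenosa and 6.98, 6.42 and 4.38 RPKM from the A. thaliana allele (log2 ratio -1.01, adjusted p = 0.029).

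Hormone, light and signalling genes had 11 members, and 6 of 11 had a higher A. arenosa allele in the F1. GASA1 (AT1G75750), a small secreted protein regulated by gibberellin, had 33.9 RPKM in A. suecica, against 225 RPKM from the A. arenosa allele, with the A. thaliana allele at 0, in F8. The F1 had 345, 340.0 and 486 RPKM from the A. arenosa and 67.7, 35.5 and 34.8 RPKM from the A. thaliana allele. The A. arenosa values were far higher in each column (log2 ratio 3.11, SE 0.27, adjusted p = 0.0025), and A. suecica lay below each of them. The parents overlapped, with 71.5, 217 and 316 RPKM in A. arenosa and 92.2, 51.9 and 235 RPKM in A. thaliana (log2 parental difference 0.70, adjusted p = 0.53). BR6OX2, a late enzyme of brassinosteroid synthesis, had 23.5 RPKM in A. suecica. AT5G43870, an auxin canalization protein, had 22.7 RPKM and OPR2, a 12-oxophytodienoate reductase, 20.7 RPKM.

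Other enzymes of metabolism made up the largest group, with 18 members, of which 14 of 17 tested had a higher A. arenosa allele in the F1 and 8 of 17 were higher in A. arenosa among the parents. In A. suecica, AT2G29310, a Rossmann-fold dehydrogenase, had 71.3 RPKM and c-NAD-MDH2, a cytosolic malate dehydrogenase, 68.1 RPKM. AT3G13930, a dihydrolipoamide acetyltransferase, had 53.3 RPKM, AAO2, an aldehyde oxidase, 31.3 RPKM and AT5G03370, an acylphosphatase, 28.4 RPKM. AT3G59840, an allyl alcohol dehydrogenase-like gene, had 25.2 RPKM, TKPR2, a tetraketide reductase, 24.2 RPKM and AT1G06640, an oxygenase, 24.0 RPKM. Of these 8, AT3G13930 was at 0 in F8. Cell wall and sugar genes had 9 members, with 4 of 9 higher from the A. arenosa allele in the F1 and 5 of 9 higher in the A. arenosa parent. ENGase85A, a glycosyl hydrolase, had 32.3 RPKM in A. suecica and PMM, a phosphomannomutase of ascorbate synthesis, 28.3 RPKM.

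DNA, chromatin and transcription factor genes had 8 members at mostly low levels, with a median of 4.35 RPKM from the A. arenosa allele in A. suecica. Of these, 5 were at 0 in F8, 5 of 6 tested had a higher A. arenosa allele in the F1, and none of 5 passed between the parents. GYRB1, a subunit of organellar DNA gyrase, was the highest with 27.8 RPKM. The remaining 17 loci had other or unknown functions. AT1G23130, of the polyketide cyclase and lipid transport superfamily, had 211 RPKM in A. suecica, against 552 RPKM from the A. arenosa and 29.6 RPKM from the A. thaliana allele in F8. The F1 had 293, 441 and 581 RPKM from the A. arenosa and 75.2, 70.4 and 102 RPKM from the A. thaliana allele (log2 ratio 2.36, SE 0.17, adjusted p = 0.0022). The alleles were far apart in the F1, while the parental columns overlapped, with 582, 495 and 411 RPKM in A. arenosa and 529, 571 and 397 RPKM in A. thaliana (log2 difference -0.01, SE 0.37, adjusted p = 0.99). In this group AT3G56480, a myosin heavy chain-like gene, had 55.7 RPKM in A. suecica. AT3G20510, a transmembrane 14C protein, had 30.2 RPKM. AT2G35790 and AT5G19875, both uncharacterized, had 27.7 and 20.7 RPKM.

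**Figure D4:**
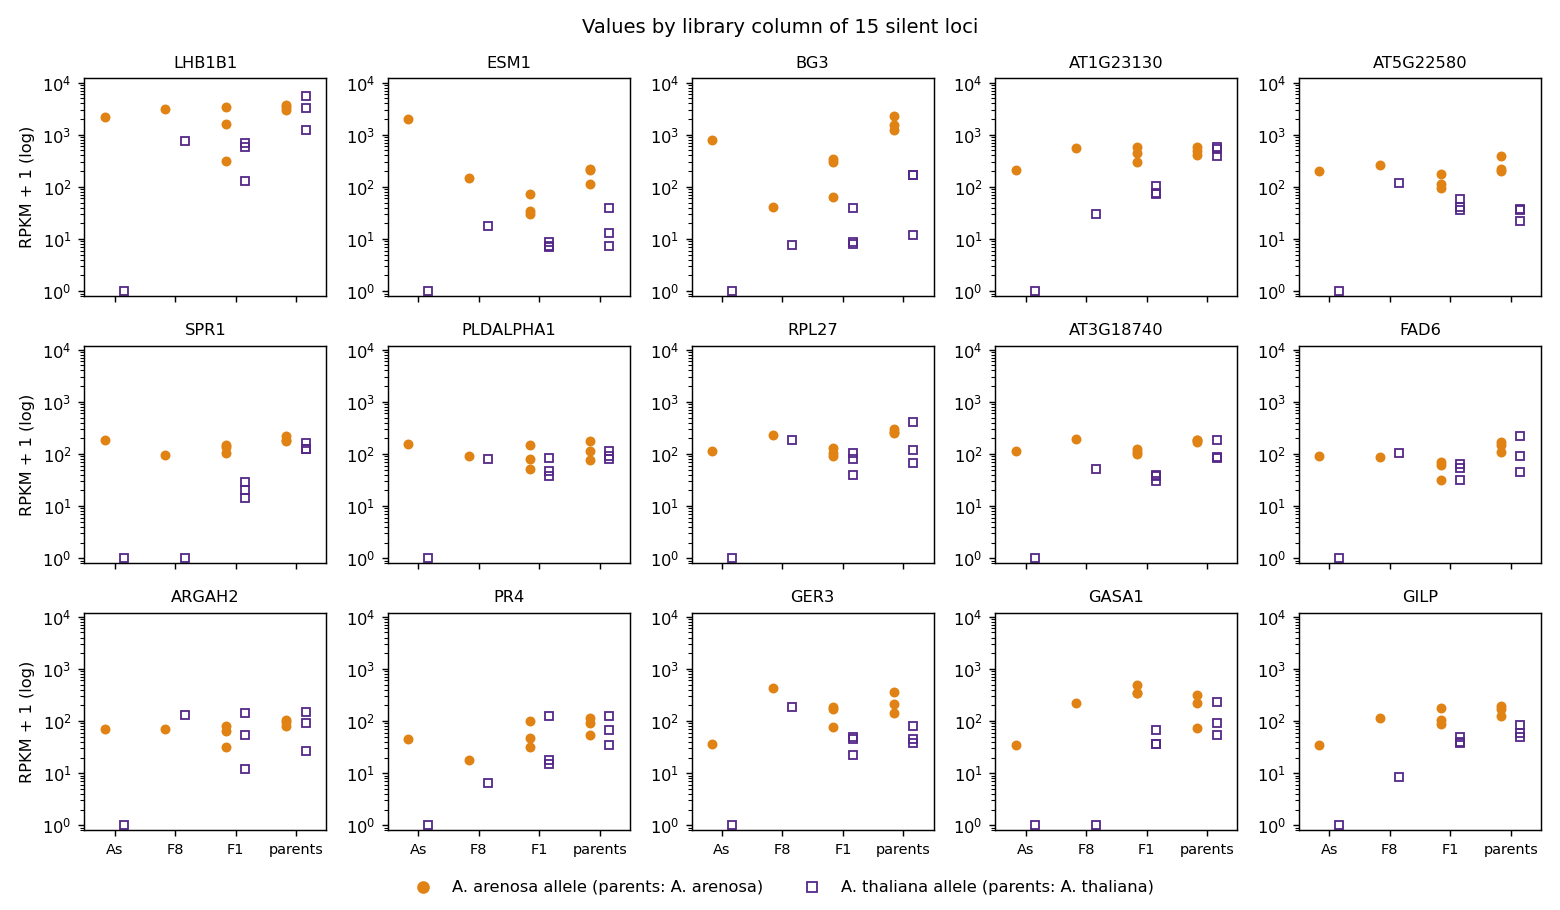
RPKM + 1 (vertical axis, log scale) is plotted for each library column of 15 silent loci, by group along the horizontal axis from A. suecica (As) over F8 and F1 to the parents, with filled circles for the A. arenosa allele or parent and open squares for the A. thaliana allele or parent. The squares of A. suecica sit at 1, the mark of 0 RPKM, by the choice of loci; those of SPR1 and GASA1 sit there in F8 too, while those of FAD6, ARGAH2 and RPL27 lie near or above the circles in F8 or the F1.

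Silent loci mostly stood alone, which follows in part from leaving out the 45 loci near the end of chromosome 3. The count expected by chance was not computed. In the gene order of TAIR10.1, 137 of the 142 had no other of them next to it among the loci listed in A. suecica, and 5 did. These were the 3 HSP90 genes, with 1086 and 2221 bases between neighbours, and AT2G14255, an ankyrin-repeat gene, with PIP (AT2G14260), a proline iminopeptidase gene 49 bases away. The 278 neighbouring positions held by loci that were not silent, counted for each silent locus, had a median A. thaliana share of 48.2% in A. suecica, against 51.0% at the other loci of the table. A share under 10% was found at 9 of these positions (3.24%), against 1.89% of the other loci. Chromosomes 1, 2, 3, 4 and 5 held 33, 19, 33, 15 and 42 silent loci, or 1.16%, 1.19%, 1.53%, 0.906% and 1.65% of the loci listed on each.

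A close relative was more common among the silent loci than in the table as a whole. Another A. thaliana gene with a coding sequence at least 80% identical over at least 50% of its length was found for 60 of 141 (42.6%), against 25.7% of 10742 loci. At 90% identity it was found for 16 (11.3%), against 3.74%, and at 95% for 6 (4.26%), against 1.32%. Of the 16, 7 were at 0 in F8, against 26.2% of the silent loci listed there and 1.1% of all loci. The 16 include the HSP90 genes, ACT1 (actin), MT1C, the histone gene AT5G59970 and LHB1B1, which is 91.5% identical to LHB1B2. Without the loci with a relative at 90% identity, 45 of 114 (39.5%) were higher in the A. arenosa parent, against 10.7% of all loci, and 72 of 112 (64.3%) had a higher A. arenosa allele in the F1, against 8.47%. Reads of close relatives can be credited to the wrong gene or allele, and how far this shaped the 0 in A. suecica was not tested.

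**Figure D5:**
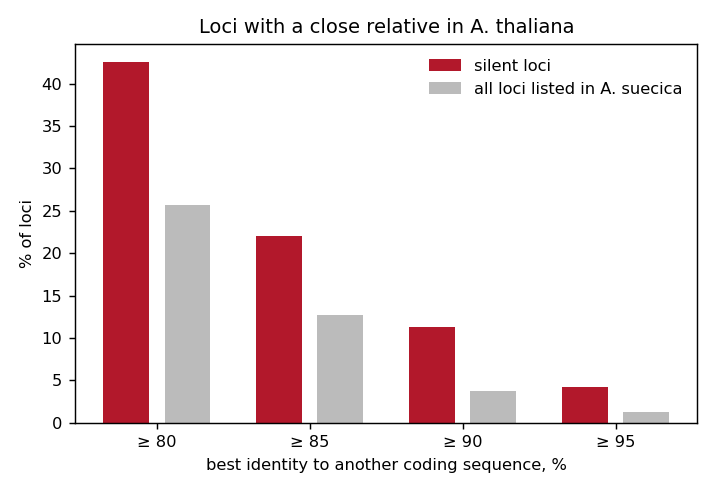
The percentage of loci (vertical axis) whose best match to another A. thaliana coding sequence reaches 80, 85, 90 or 95% identity (horizontal axis) is drawn for the silent loci (red, 141 with a coding sequence) and for all loci listed in A. suecica (grey, 10742). The red bar is the taller one at each level, 42.6% against 25.7% at 80% and 4.26% against 1.32% at 95%.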

How the data were processed

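The 5 tables used hold RPKM computed by the authors and deposited per transcript, for each parent and for each allele (T, A. thaliana; A, A. arenosa) in the allotetraploids, per the file headers. Per the submitters' processing notes the genome build was TAIR 9. The sources used here do not give the aligner or how reads were assigned to alleles. Reads were 60 to 83 bases long by the labels. No counts could be used, so depth and the precision it gives are unknown.

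Each locus was represented by 1 transcript, the one in most tables and, among these, with the highest mean level; 4 ribosomal RNA transcripts were dropped. Loci with at least 5 RPKM in the larger group (or in both alleles together) were compared as log2(RPKM + 1). The parents and the F1 allele ratio within columns were tested with limma 3.58.1 (trend) in R 4.3.3, adjusted by Benjamini-Hochberg over all loci, and called at an adjusted p below 0.05 and 2-fold. F8 and A. suecica were compared by size. The tests were tried on simulated data with 200 loci changed 4-fold. The parental test recovered 118 of them (59.0%) with 4 false calls, and the F1 test 153 (76.5%) with 2. A difference that did not pass is therefore not read as equality. Names, positions and coding sequences are from RefSeq TAIR10.1, where 31782 loci were found and 527 were not; coordinates are not from the deposited tables. Relatives were found with BLAST 2.17.0 (megablast, word size 20) of coding sequences, in place of the protein search first planned, because no protein table was at hand. Python 3.11.15 with pandas 2.3.3, numpy 2.4.6, scipy 1.17.1 and matplotlib 3.10.9 did the rest.

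The loci, function groups and comparisons were chosen with earlier results of these data known, and function groups were assigned after values were seen. Named are the 60 loci with the highest A. arenosa allele in A. suecica, with all columns for the 12 highest in the F1 A. thaliana allele and the 6 highest in A. suecica; others were named after their values were seen. Same-numbered parental columns had correlations of 0.06, -0.16 and 0.19 across loci in their deviations from the group means, so the numbers do not pair them. Alternatives covered the pseudocount, filter, centring, transcripts summed, a replicate block and each column left out.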

Additional observations from a re-analysis of the deposited data

Results flagged for a closer look

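At 7 loci the A. arenosa allele was the lower one in F8 and the higher one in every F1 column. The share of all loci with such a change was not computed, so the count is not read as a trait of the silent loci. The difference between F8 and the F1 was not tested, since F8 has 1 library. The log2 ratio of the alleles (A. arenosa over A. thaliana) in F8, with its lowest and highest value in the F1 columns, was as follows. It was -0.036 for AT1G36280, an L-aspartase-like gene, against 0.44 to 4.07. For AT1G69900, an actin cross-linking protein, it was -0.027, against 0.60 to 1.04. PIP (AT2G14260) had -0.45, against 0.19 to 0.44. PMM (AT2G45790) had -0.21, against 0.23 to 0.60. AT3G20510 had -0.19, against 1.58 to 2.39. FAD6 (AT4G30950) had -0.31, against 0.00074 to 0.17. AT5G05370, a subunit of the cytochrome b-c1 complex, had -0.66, against 0.43 to 0.72. The F8 values of AT1G36280 and AT1G69900 are close to equal alleles.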

How the results depend on the processing

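Taking the A. thaliana allele at or below 0.05 RPKM in A. suecica gave 146 loci, and any transcript at 0 gave 148, against 142. Loci higher in the A. arenosa parent numbered 49, and 25 to 64 with 1 parental column left out; with a replicate block, although the numbers do not pair the columns, the counts were 45 and 1 against 49 and 1, and GILP was not called. Centring on the median of all loci gave 36. In the F1, the A. arenosa allele was higher at 82 to 91 loci with 1 column left out, against 85, and at 57 without loci low in the F1, a setting added after seeing the data; the A. thaliana allele was higher at 1 to 2, against 2. In F8, the count of 91 was 58 without loci at 0 there, which has fewer loci by its construction and was also added after seeing the data. The counts of A. suecica against F8 and the F1 stayed within 1.5 times under each alternative run. Of 360 alternative values for 20 of the loci described, 330 kept direction and side of the adjusted p of 0.05, 17 lost that p, 4 gained it and 9 changed sign, none of the 9 a called value; the cause was not tested. With 1 column left out, the parental log2 difference ran from -0.16 to 0.12 for AT1G23130, -0.31 to 0.77 for LHB1B1, -0.12 to 0.78 for PR4, -0.33 to 0.91 for ARGAH2 and -0.029 to 1.14 for FAD6, and the F1 log2 ratio of ARGAH2 from -0.29 to 0.85. Centring gave -0.028 for LHB1B1. Depth is unknown, so a 0 in A. suecica or F8 may be a low level.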
